A study of Brassica rapa subsp. pekinensis with 4 samples.

Results

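The genes that make and export cuticular wax were followed in shoots of the Chinese cabbage (*Brassica rapa* ssp. *pekinensis*) inbred line “4004”. Members were all *B. rapa* genes (Bra identifiers) whose Arabidopsis match in the deposited count files was 1 of 10 loci, and 25 of the 36698 listed genes met this rule. The loci were CER6 (AT1G68530, 3 copies), CER2 (AT4G24510, 1 copy), CER10 (AT3G55360, 1 copy), CER3 (AT5G57800, 5 copies), CER1 (AT1G02205, 1 copy), MAH1 (AT1G57750, 7 copies), CER4 (AT4G33790, 2 copies), WSD1 (AT5G37300, 1 copy), CER5 (AT1G51500, 1 copy) and WIN1 (AT1G15360, 3 copies). The gene names are those of the Arabidopsis loci, and the roles given to them are roles known in Arabidopsis. The *B. rapa* copies were assigned by that match alone.

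The RNA-Seq libraries were 2 of plants vernalized for 35 days (35D Ver) and 2 of plants without vernalization (0D Ver). Plants of the 35D Ver group grew at 23 °C with 16 h of light and were then kept at 5 °C with 12 h of light, and were labelled 7 weeks old. Plants of the 0D Ver group had the growth at 23 °C with 16 h of light only and were labelled 2 weeks old. Cold, age and day length therefore differed together between the groups and cannot be told apart. Each library was made from shoots of several plants pooled together, from 1 inbred line. Whole shoots contain many cell types, so that fewer epidermal cells and less wax gene RNA per epidermal cell cannot be told apart either.

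The aerial surface of a plant is sealed by the cuticle, a layer of the polyester cutin filled and covered with wax, which limits water loss. Epidermal cells make the wax from very-long-chain fatty acids, which are built on the endoplasmic reticulum by elongase complexes. These acyl chains then enter an alkane branch, which yields aldehydes, alkanes, secondary alcohols and ketones, or an alcohol branch, which yields primary alcohols and wax esters. The products are carried across the plasma membrane by ABC transporters, and transcription factors of the epidermis set the level of many of the enzymes.

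The libraries held 17221386 to 23428420 counts each. Counts were divided by size factors of 0.82 to 1.10, and the resulting normalized counts are comparable between libraries for 1 gene but not between genes or copies, because gene lengths were not used here. The fit covered 29691 genes, of which 12042 had an adjusted p below 0.05 (limma, Benjamini-Hochberg). Counts of the 2 libraries of a group differed beyond sampling noise (chi-square per degree of freedom 10.2 for 35D Ver and 9.30 for 0D Ver).

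Wax gene expression was lower in 35D Ver for most copies. Of the 25 member copies, 22 passed the filter on low values and 3 did not, all 3 of which were copies of WIN1. Among the 22 tested copies, 16 fell in 35D Ver, 0 rose and 6 did not pass the test (limma, adjusted p below 0.05). In the same fit 20.5% of all tested genes fell and 20.1% rose. At an unadjusted p below 0.05 the copies numbered 18 lower and 0 higher, and a fit with voom weights called 16 lower and 0 higher. All 22 copies had at least 10 scaled counts in every library, so that none was admitted to the test through 1 group alone.

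The log2 fold changes of the 22 copies ranged from −2.08 to 0.64 with a median of −0.88, against a median of −0.01 over all tested genes and a range of −0.88 to 0.75 between their 10th and 90th percentiles. The groups did not overlap for 18 copies that were lower in both 35D Ver libraries, where 37.1% of all tested genes showed that order. They did not overlap for 1 copy that was higher in 35D Ver, where 36% of all tested genes did so, and they overlapped for 3 copies. The study's thresholds for a differentially expressed gene were an adjusted p below 0.05, at least a 2-fold change and at least 500 normalized counts. That count was taken here as the mean of the higher group, and the adjusted p came from limma. Read in this way, 6 copies were lower, namely 2 of CER6 and 4 of MAH1, and 0 were higher. Of all tested genes, 1.75% were lower and 1.34% higher under these thresholds.

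**Figure D1:**
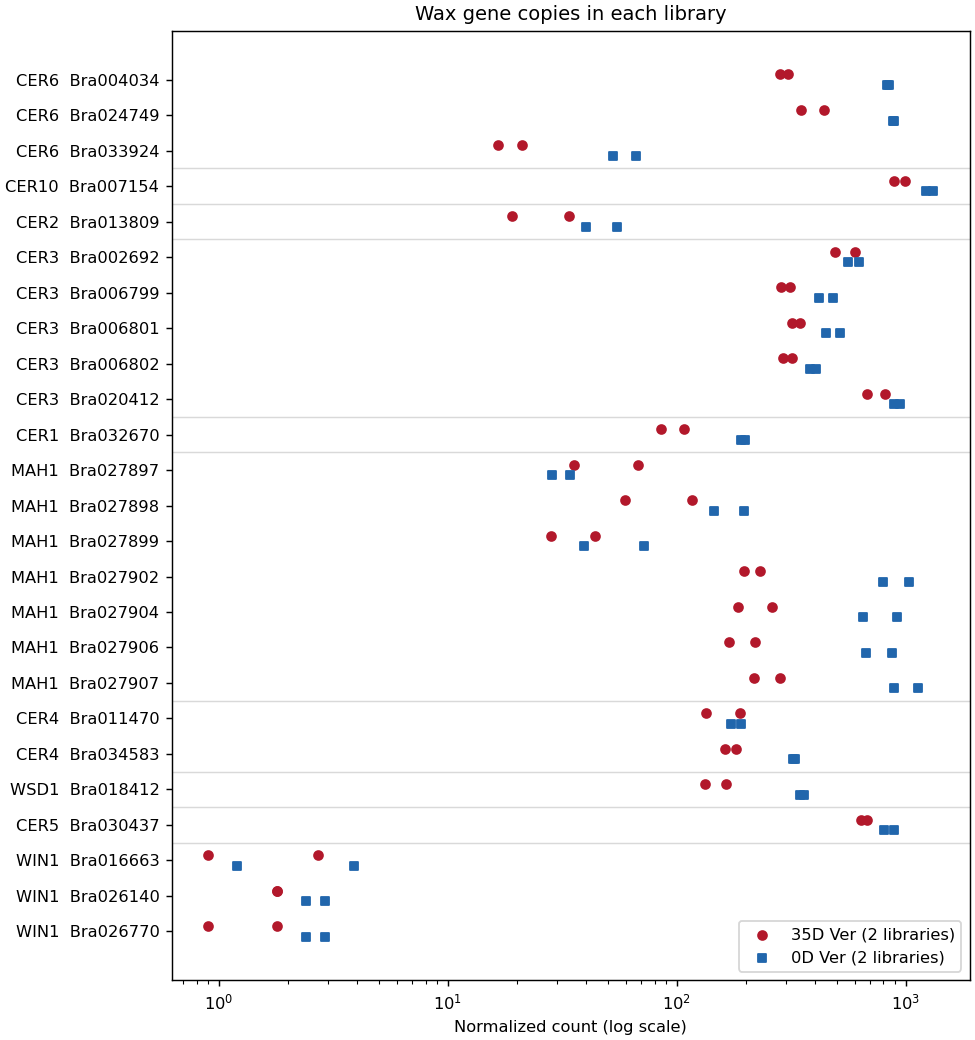
Normalized counts on a log axis for each of the 25 wax copies, the 3 untested copies of WIN1 included, with the copies ordered by role. Each has 1 point per library, for the 2 libraries of 35D Ver and the 2 libraries of 0D Ver. Among the 22 tested copies, the 35D Ver points lie below the 0D Ver points for 18 and above them for 1 copy of MAH1. The groups overlap for the other 3 tested copies.

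The 10 loci were also compared after the copies with the same Arabidopsis match had been summed, since such copies are alike in sequence and may share reads. Of the 9 locus sums that could be tested, 8 fell in 35D Ver and 0 rose (limma, adjusted p below 0.05, over 16976 loci). Of all locus sums 20.4% fell and 19.9% rose. The sum of CER2 did not pass the test, and the sum of WIN1 was too low to be tested. The number of locus sums that fell was 5 when 35D Ver replicate 2 or 0D Ver replicate 2 was left out, and these 5 were CER6, CER1, MAH1, CER4 and WSD1.

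CER6 is the condensing enzyme of the elongase that makes the longest acyl chains for wax in Arabidopsis shoots, and all 3 of its copies fell. Bra004034 had 282 and 306 normalized counts in 35D Ver, against 843 and 830 in 0D Ver. The groups were far apart and the log2 fold change was −1.51 (SE 0.11, adjusted p = 3.39e-05). Bra024749 had 442 and 348 normalized counts in 35D Ver, against 885 and 882 in 0D Ver, a log2 fold change of −1.17 (SE 0.13, adjusted p = 0.000312). Bra033924 was counted much less often, with 16.5 and 21.0 normalized counts in 35D Ver, against 66.7 and 52.5 in 0D Ver (log2 fold change −1.62, SE 0.25, adjusted p = 0.00139). The summed CER6 copies had 745 and 678 normalized counts in 35D Ver, against 1787 and 1757 in 0D Ver, which is 2.49-fold lower in 35D Ver.

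CER10 is the enoyl-CoA reductase that completes each round of elongation, and it serves sphingolipids and storage lipids as well as wax. Its single copy Bra007154 had 996 and 892 normalized counts in 35D Ver, against 1224 and 1321 in 0D Ver. This was a small difference without overlap, with a log2 fold change of −0.43 (SE 0.11, adjusted p = 0.0144). The call was lost without 35D Ver replicate 2 (adjusted p = 0.09) and without 0D Ver replicate 2 (adjusted p = 0.085).

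CER2 is a protein of the BAHD family that works with CER6 in the last rounds of elongation. Its copy Bra013809 had 33.9 and 19.1 normalized counts in 35D Ver, against 40.2 and 54.9 in 0D Ver. The 35D Ver libraries were lower without overlap, but the log2 fold change of −0.86 did not pass the test (95% confidence interval −1.56 to −0.15, adjusted p = 0.055). It passed when 35D Ver replicate 1 was left out, with a log2 fold change of −1.23 (adjusted p = 0.0113).

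CER1 and CER3 act together in the conversion of very-long-chain acyl-CoA to alkanes. The CER1 copy Bra032670 fell to 108 and 85.7 normalized counts in 35D Ver, against 199 and 190 in 0D Ver. Its log2 fold change was −1.01 (SE 0.16, adjusted p = 0.00184), and no library of one group reached the range of the other.

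The 5 copies of CER3 changed less, with log2 fold changes of −0.59 to −0.12, and 3 of them passed the test. Bra006799 had 311 and 284 normalized counts in 35D Ver, against 481 and 420 in 0D Ver (log2 fold change −0.59, SE 0.12, adjusted p = 0.00613). Bra006801 had 344 and 320 normalized counts in 35D Ver, against 515 and 448 in 0D Ver (log2 fold change −0.53, adjusted p = 0.00924), and its call was lost without 0D Ver replicate 1 (adjusted p = 0.0601). Bra006802 had 318 and 291 normalized counts in 35D Ver, against 407 and 381 in 0D Ver (log2 fold change −0.37, adjusted p = 0.0352), and its call was lost when any 1 of the 4 libraries was left out. Of these 3 copies only Bra006799 thus kept its call whichever library was left out.

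The other 2 copies of CER3 did not pass. Bra020412 had 815 and 676 normalized counts in 35D Ver, against 891 and 943 in 0D Ver, with a log2 fold change of −0.30 (95% confidence interval −0.58 to −0.026, adjusted p = 0.0773), and it passed without 35D Ver replicate 1 (−0.41, adjusted p = 0.044). Bra002692 had 600 and 492 normalized counts in 35D Ver, against 557 and 624 in 0D Ver. Its groups overlapped and its log2 fold change was −0.12 (95% confidence interval −0.42 to 0.18, adjusted p = 0.503). The sum over the CER3 copies was 2403 and 2071 in 35D Ver, against 2839 and 2803 in 0D Ver (log2 fold change −0.34, adjusted p = 0.0405). That call was lost without 35D Ver replicate 2 (adjusted p = 0.245), without 0D Ver replicate 1 or without 0D Ver replicate 2.

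MAH1 is the cytochrome P450 that hydroxylates alkanes in the middle of the chain to give secondary alcohols and ketones, the end of the alkane branch. Its 7 copies held the strongest decreases among the members, and also the only member with a positive log2 fold change. Bra027902 had 231 and 197 normalized counts in 35D Ver, against 796 and 1034 in 0D Ver, a 4.28-fold lower mean (log2 fold change −2.08, SE 0.15, adjusted p = 3.35e-05). Bra027907 had 282 and 218 normalized counts in 35D Ver, against 886 and 1134 in 0D Ver (log2 fold change −2.01, SE 0.16, adjusted p = 6.92e-05). In both copies the lowest 0D Ver library was far above the highest 35D Ver library.

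The values of the next 2 MAH1 copies were close to these. Bra027906 had 219 and 169 normalized counts in 35D Ver, against 674 and 869 in 0D Ver (log2 fold change −1.99, SE 0.17, adjusted p = 8.25e-05). Bra027904 had 260 and 186 normalized counts in 35D Ver, against 652 and 917 in 0D Ver (log2 fold change −1.81, SE 0.21, adjusted p = 0.00049). All 4 of these copies kept their call whichever library was left out.

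The remaining 3 MAH1 copies had fewer counts and less certain changes. Bra027898 had 116 and 59.3 normalized counts in 35D Ver, against 145 and 198 in 0D Ver, and fell with a log2 fold change of −1.02 (SE 0.32, adjusted p = 0.0386). This call rested on single libraries: it was lost without 35D Ver replicate 2 (−0.53, adjusted p = 0.0888), without 0D Ver replicate 1 (adjusted p = 0.0543) and without 0D Ver replicate 2 (adjusted p = 0.164). Bra027899 had 44.0 and 28.3 normalized counts in 35D Ver, against 39.2 and 72.0 in 0D Ver, and its groups overlapped (log2 fold change −0.58, 95% confidence interval −1.34 to 0.18, adjusted p = 0.195). Without 0D Ver replicate 1 it passed, at −1.02 (adjusted p = 0.0481).

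Bra027897 was the only member with higher counts in 35D Ver, at 67.8 and 35.6 normalized counts in 35D Ver, against 28.5 and 34.2 in 0D Ver. The second 35D Ver library lay just above the higher of the 0D Ver libraries, and the log2 fold change of 0.64 did not pass the test (95% confidence interval −0.073 to 1.35, adjusted p = 0.135). Without 35D Ver replicate 2 it was 1.10 and passed (adjusted p = 0.0134). Summed over its copies, MAH1 had 1227 and 895 normalized counts in 35D Ver, against 3206 and 4238 in 0D Ver, which was 3.51-fold lower in 35D Ver (log2 fold change −1.81, 95% confidence interval −2.24 to −1.39, adjusted p = 0.000308).

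**Figure D2:**
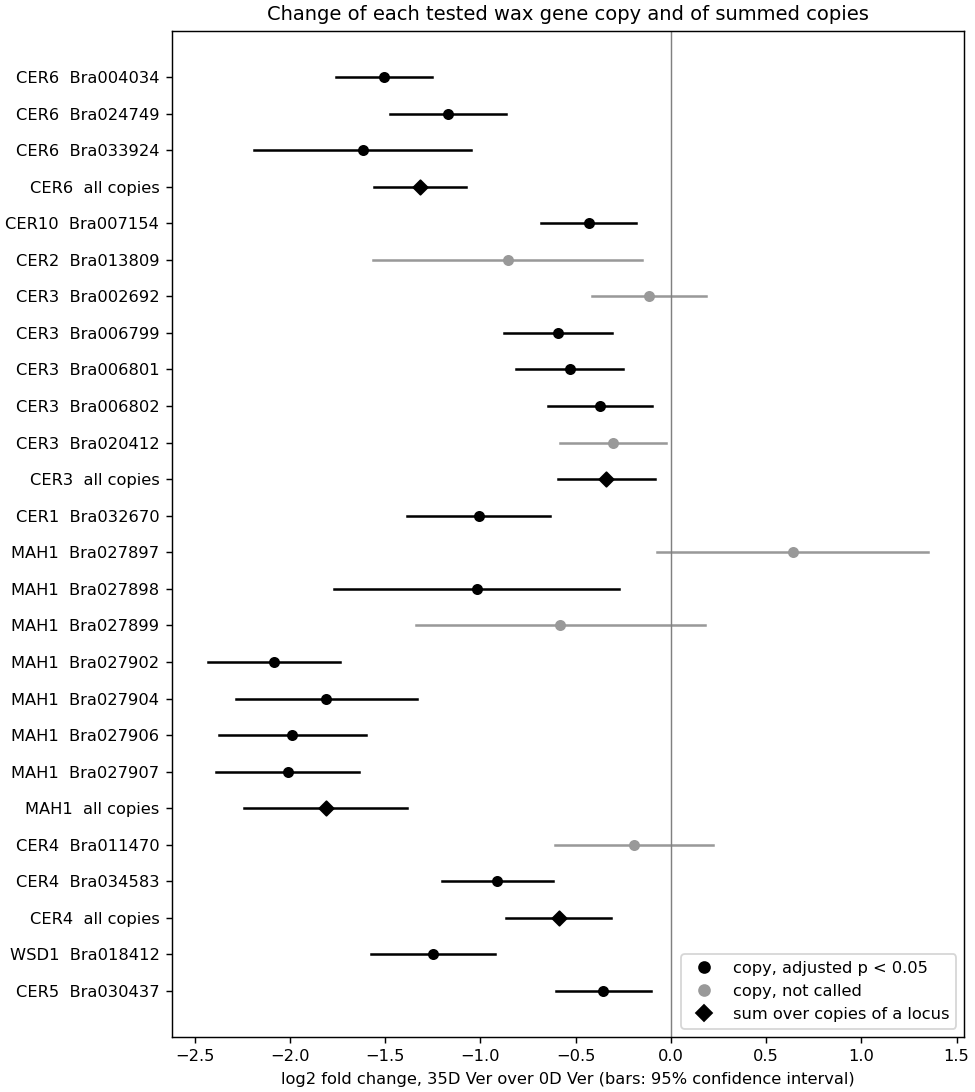
Log2 fold change (35D Ver minus 0D Ver) of each tested wax copy with its 95% confidence interval from limma, in order of role, with copies that passed the test marked apart from those that did not. The values run from −2.08 for MAH1 Bra027902 to 0.64 for MAH1 Bra027897, and the 16 copies that passed all lie below 0.

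CER4 is the fatty acyl-CoA reductase that makes primary alcohols, and 1 of its 2 copies passed the test. Bra034583 had 163 and 182 normalized counts in 35D Ver, against 323 and 327 in 0D Ver, and fell with a log2 fold change of −0.91 (SE 0.13, adjusted p = 0.000886). Bra011470 had 189 and 134 normalized counts in 35D Ver, against 173 and 192 in 0D Ver, so that its groups overlapped (log2 fold change −0.19, 95% confidence interval −0.61 to 0.22, adjusted p = 0.427). The difference between the copies was not tested. The summed CER4 copies had 354 and 317 normalized counts in 35D Ver, against 493 and 516 in 0D Ver (log2 fold change −0.59, adjusted p = 0.00574).

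WSD1 joins primary alcohols and acyl-CoA into wax esters. Its copy Bra018412 fell to 164 and 133 normalized counts in 35D Ver, against 361 and 344 in 0D Ver. The log2 fold change was −1.25 (SE 0.14, adjusted p = 0.000334), and the call held whichever library was left out.

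CER5 is an ABC transporter of the ABCG group that exports wax from epidermal cells. Its copy Bra030437 had 677 and 640 normalized counts in 35D Ver, against 801 and 885 in 0D Ver, and its mean was 1.28-fold lower in 35D Ver (log2 fold change −0.35, SE 0.11, adjusted p = 0.0313). This small decrease lost its call without 35D Ver replicate 1 (adjusted p = 0.0729), without 35D Ver replicate 2 (adjusted p = 0.138) and without 0D Ver replicate 2 (adjusted p = 0.168).

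WIN1 is an AP2/ERF transcription factor that raises cuticle gene expression when overproduced in Arabidopsis. Its 3 copies were barely counted in these shoots. Bra016663 had deposited values of 3 and 1 in 35D Ver, against 4 and 1 in 0D Ver. Bra026140 and Bra026770 had deposited values between 1 and 3 in all 4 libraries, where 1 is the lowest value that the files hold. No difference was detectable at this depth.

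The make-up of each locus by copy was followed as the share of each copy in the normalized counts of its locus. The 4 MAH1 copies with the strongest decreases did not all have lower shares in 35D Ver: Bra027902 held 18.9% and 22.1% in 35D Ver, against 24.7% and 24.3% in 0D Ver, whereas Bra027904 held 21.3% and 20.8% in 35D Ver, against 20.2% and 21.5% in 0D Ver, which overlapped. Bra027897 held 5.6% and 4.0% of the MAH1 counts in 35D Ver, against 0.9% and 0.8% in 0D Ver. Bra027898 held 9.5% and 6.6% in 35D Ver, against 4.5% and 4.6% in 0D Ver. The 3 copies with the fewest counts thus made up a greater part of MAH1 in 35D Ver, with Bra027899 at 3.6% and 3.2% in 35D Ver, against 1.2% and 1.7% in 0D Ver.

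In the other families the shares overlapped between the groups for CER6 Bra033924 and for CER3 Bra006802 and Bra020412. They did not overlap for the other copies of CER6, CER3 and CER4, of which 1 is given for each locus. CER6 Bra004034 held 38.1% and 45.3% of the CER6 counts in 35D Ver, against 47.0% and 47.0% in 0D Ver. CER4 Bra011470 held 53.6% and 42.4% of the CER4 counts in 35D Ver, against 34.9% and 36.9% in 0D Ver, and CER3 Bra002692 held 25.1% and 23.9% of the CER3 counts in 35D Ver, against 19.5% and 22.1% in 0D Ver. These shares were not tested, since an exact permutation test of 2 libraries against 2 cannot give a two-sided p below 0.333. Shares within a locus, those of MAH1 included, are tied, because a greater share of one copy lowers that of the others. With 2 copies, as in CER4, the shares mirror each other. How often the shares of other loci fail to overlap was not counted, so these orders are description only.

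**Figure D3:**
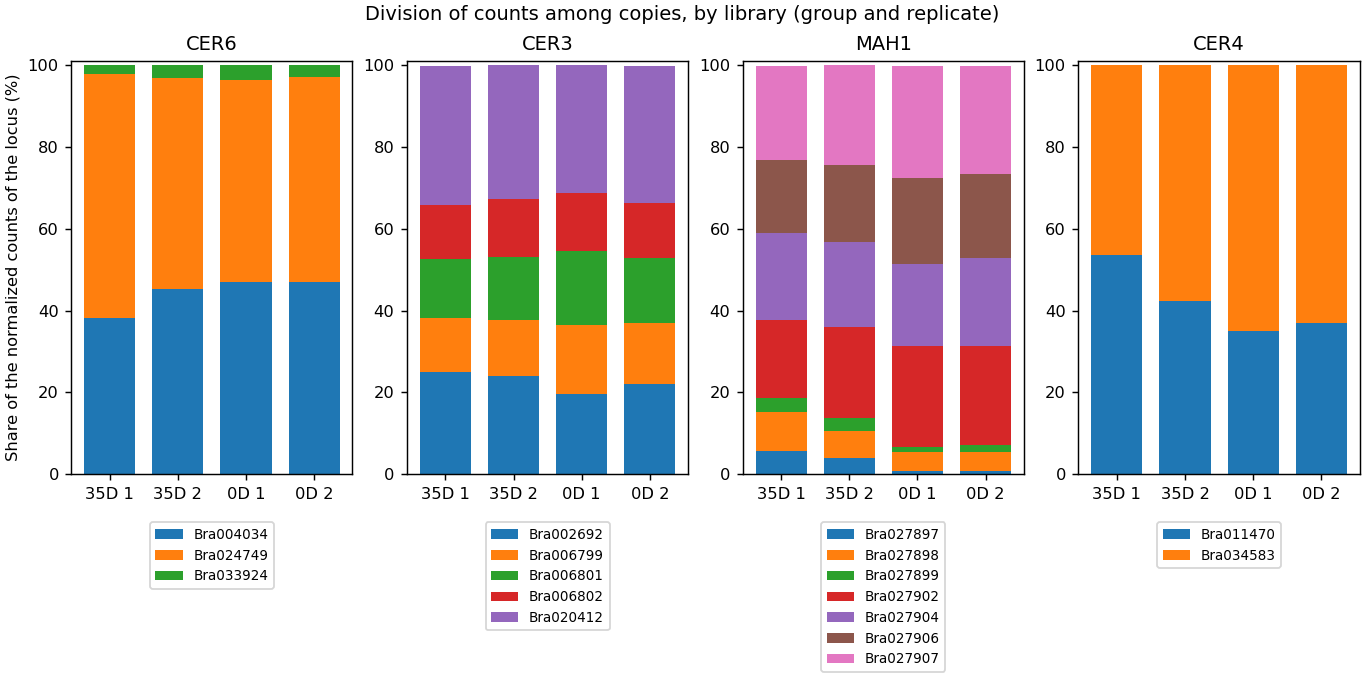
Share in percent of each copy in the summed normalized counts of its locus for CER6, CER3, MAH1 and CER4, with stacked bars for the 2 libraries of 35D Ver and the 2 libraries of 0D Ver. Within MAH1, Bra027897 takes 5.6% and 4.0% in 35D Ver and 0.9% and 0.8% in 0D Ver.

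Markers of the epidermis, the tissue that makes wax, were partly lower in 35D Ver, where 20.5% of all tested genes fell and 20.1% rose. Of the 11 copies of 5 epidermis markers (ATML1, PDF2, PDF1, FDH and ACR4), 5 fell, 0 rose and 6 did not pass (limma, adjusted p below 0.05), with 6 lower and 0 higher at an unadjusted p below 0.05. The number that fell was 2 without 35D Ver replicate 1 and 3 without 0D Ver replicate 1. The log2 fold changes of the 11 copies ranged from −0.70 to 0.54 with a median of −0.41, the 3 copies of PDF2 did not pass, and the 5 that fell were 2 copies of FDH, itself a condensing enzyme of the epidermis, and 3 copies of ATML1, a homeodomain factor of epidermal identity. The summed normalized counts of all 11 copies were 7328 and 8397 in 35D Ver, against 11586 and 9602 in 0D Ver. That sum includes the FDH copies. FDH Bra007766 had 962 and 936 normalized counts in 35D Ver, against 1615 and 1454 in 0D Ver. FDH Bra034298 had 1239 and 1279 in 35D Ver, against 2183 and 1911 in 0D Ver.

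Per unit of this epidermal sum, a scaling chosen after seeing the data, 4 of the 9 locus sums were lower in 35D Ver without overlap and 5 overlapped. On the same scale 12.4% of all tested locus sums were lower in 35D Ver without overlap. MAH1 was 16.7% and 10.6% of the epidermal sum in 35D Ver, against 27.8% and 44.3% in 0D Ver. CER6 was 10.1% and 8.05% in 35D Ver, against 15.5% and 18.4% in 0D Ver, and CER1 and WSD1 were the others without overlap. CER3 was 32.6% and 24.6% of the epidermal sum in 35D Ver, against 24.6% and 29.3% in 0D Ver, and CER10, CER2, CER4 and CER5 also overlapped. All members together came to 91.2% and 68.1% of the epidermal sum in 35D Ver, against 94.9% and 127% in 0D Ver, without overlap. Without MAH1 they came to 74.6% and 57.5% in 35D Ver, against 67.1% and 82.3% in 0D Ver, which overlapped. Within the epidermal sum, PDF1 differed between libraries of a group. PDF1 Bra004715 had 829.8 and 1079.4 normalized counts in 35D Ver, against 1432.6 and 921.5 in 0D Ver. PDF1 Bra016855 had 1316.2 and 1623.6 in 35D Ver, against 2234.3 and 1590.3 in 0D Ver. No sum without FDH or without PDF1 was used for scaling. The part of the epidermal markers in the decreases of the wax genes was not tested.

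**Figure D4:**
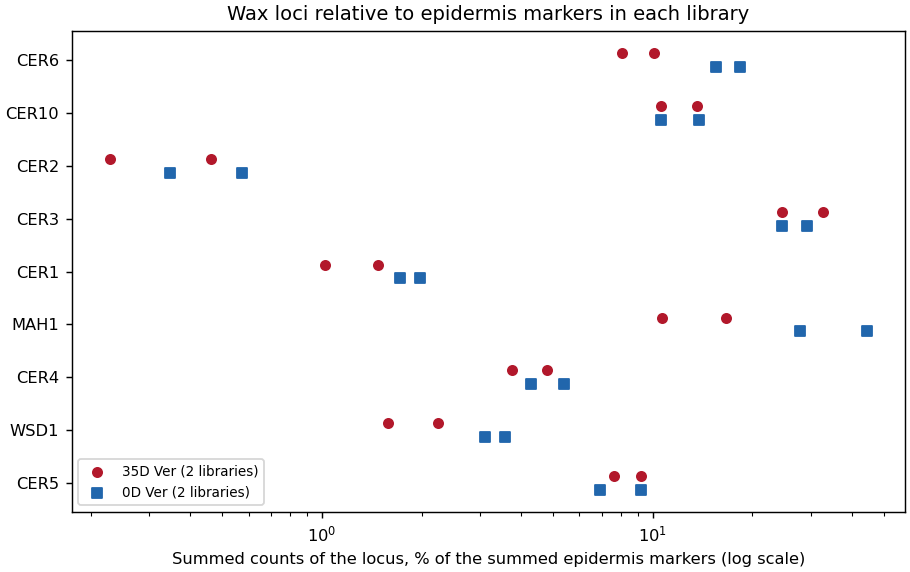
Normalized counts of each wax locus as a percentage of the summed epidermis markers of the same library, on a log axis, 1 point per library of 35D Ver and of 0D Ver. CER6, CER1, MAH1 and WSD1 are lower in both 35D Ver libraries than in either 0D Ver library, and the groups overlap for the other 5 loci.

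Other cell types were followed by their markers in the same way, beside the same 20.5% of all tested genes that fell and 20.1% that rose. Trichome markers fell in 2 of 3 tested copies and rose in 0 (also 2 and 0 at an unadjusted p below 0.05). The number that fell was 1 of 2 when at least 10 scaled counts were required in every library, and 1 without 0D Ver replicate 1 or 2. The summed normalized counts of all 4 listed copies were 74.2 and 71.1 in 35D Ver, against 164 and 197 in 0D Ver. GL2, a homeodomain factor of trichome cells, had 24.7 and 16.4 normalized counts for Bra003535 in 35D Ver, against 97.1 and 127 in 0D Ver (log2 fold change −2.40, adjusted p = 0.000233). GL1, the MYB factor that starts trichomes, had only 1.8 and 2.7 normalized counts for Bra025311 in 35D Ver, against 11.8 and 11.0 in 0D Ver, and entered the test through the 0D Ver libraries alone. The other tested copy, GL3 Bra025508, had 45.8 and 48.3 normalized counts in 35D Ver, against 47.1 and 51.3 in 0D Ver. It did not pass (limma, log2 fold change −0.06, adjusted p = 0.828). Stomatal markers had 1 of 14 tested copies higher, 1 lower (0 without 35D Ver replicate 1 or either 0D Ver library), 12 that did not pass and summed normalized counts of 1305 and 1460 in 35D Ver, against 1471 and 1448 in 0D Ver.

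Mesophyll markers, which are genes of photosynthesis, rose in 2 of 8 copies and fell in 0 (4 and 0 at an unadjusted p below 0.05), where 20.1% of all tested genes rose. The number that rose was 8 without 35D Ver replicate 2 and 0 without 0D Ver replicate 1 or 2. The markers had summed normalized counts of 679562 and 541144 in 35D Ver, against 458770 and 451470 in 0D Ver. Root markers passed in neither direction among 3 tested copies (0 also at an unadjusted p below 0.05). The root markers CASP1, GPAT5 and CYP86A1 were at or near the lowest value in every library, but SCR and FAR4 were counted. SCR Bra007056 had 212 and 189 normalized counts in 35D Ver, against 191 and 154 in 0D Ver. FAR4 Bra006625 had 45.8 and 30.1 normalized counts in 35D Ver, against 36.3 and 53.7 in 0D Ver. Flower markers had 7 tested copies with a median log2 fold change of −0.36, of which 3 were called higher and 0 lower (also 3 and 0 at an unadjusted p below 0.05). The 3 were the copies of PI, a floral organ identity factor, with 17.3 to 23.8 normalized counts in 35D Ver, against 7.3 to 8.8 in 0D Ver. They entered the test through the 35D Ver libraries alone. The PI copies could not be tested when either 35D Ver library was left out or when every library had to reach 10 scaled counts. Without 0D Ver replicate 1 or 2 their log2 fold changes were 1.10 to 1.27, and their calls did not all hold. The other 4 tested copies, of AP3 and SEP3, had log2 fold changes of −0.67 to −0.36 and did not pass. The shares of these cell types were not measured, and their part in the result was not tested.

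Cutin, the polyester into which wax is set, is made by the same cells, and its genes were compared as the nearest pathway. Of 20 tested cutin copies 15 fell, 1 rose and 4 did not pass, and 9 of those that fell did so by at least 2-fold. With at least 10 scaled counts required in every library, 14 of 19 fell. The median log2 fold change was −0.84, against −0.01 over all tested genes, of which 20.5% fell and 20.1% rose. CUS2, a cutin synthase of the GDSL family, had 3.7 and 5.5 normalized counts for Bra038955 in 35D Ver, against 92.2 and 115 in 0D Ver (log2 fold change −4.24, adjusted p = 2.22e-05). It entered the test through the 0D Ver libraries alone. CYP86A4, a fatty acid hydroxylase, had 40.3 and 27.3 normalized counts for Bra033251 in 35D Ver, against 171 and 188 in 0D Ver (log2 fold change −2.40, adjusted p = 0.000104). Its copy Bra032642 had 34.8 and 27.3 normalized counts in 35D Ver, against 95.2 and 109 in 0D Ver (log2 fold change −1.69, adjusted p = 0.000494).

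The other genes of acyl chain elongation and activation supply the same pathway. Of 18 tested copies 5 fell, 1 rose and 12 did not pass, with a median log2 fold change of −0.21, where 20.5% of all tested genes fell. The 1 that rose was not called when any 1 library was left out. The decrease of at least 2-fold in this list was that of CER26, a relative of CER2 with a role in elongation, whose copy Bra032743 had 499 and 476 normalized counts in 35D Ver, against 1035 and 1261 in 0D Ver (log2 fold change −1.23, adjusted p = 0.000172). The other cuticle exporters fell in 2 of 8 tested copies and rose in 0 (also 2 and 0 at an unadjusted p below 0.05), with a median log2 fold change of −0.11, where again 20.5% of all tested genes fell. The number that fell was 1 without 35D Ver replicate 2 or 0D Ver replicate 1. ABCG13, an exporter known from Arabidopsis flowers, was the one that fell by at least 2-fold, with 39.4 and 42.8 normalized counts for Bra018911 in 35D Ver, against 165 and 145 in 0D Ver (log2 fold change −1.89, adjusted p = 0.000121).

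Set beside 20.5% of all tested genes that fell and 20.1% that rose, the regulators of cuticle genes had 23 tested copies. Of these, 9 fell, 3 rose and 11 did not pass, with a median log2 fold change of −0.40. The number that rose was 0 without 35D Ver replicate 2 and 1 without 0D Ver replicate 2. The strongest decreases were those of DEWAX, an AP2/ERF repressor that lowers wax gene expression in the dark in Arabidopsis. DEWAX Bra012939 had 494 and 697 normalized counts in 35D Ver, against 1879 and 2076 in 0D Ver (log2 fold change −1.75, adjusted p = 0.000134). DEWAX Bra035919 had 605 and 869 normalized counts in 35D Ver, against 1932 and 2130 in 0D Ver (log2 fold change −1.48, adjusted p = 0.000366). This repressor was lower in the same libraries as most wax copies. The other copies that fell were Bra010085, Bra029258 and Bra035893 of MYB96, Bra006296, Bra008705 and Bra023515 of MYB16, and Bra039040 of MYB30. These are MYB factors, and their log2 fold changes were −0.94 to −0.43. The other MYB30 copies and those of MYB106 did not pass. The part of any regulator in the result was not tested. SHN3, a close relative of WIN1, had 18.3 and 27.3 normalized counts for Bra036543 in 35D Ver, against 4.9 and 8.5 in 0D Ver (log2 fold change 1.64, adjusted p = 0.00819). It entered the test through the 35D Ver libraries alone and could not be tested without either of them.

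**Figure D5:**
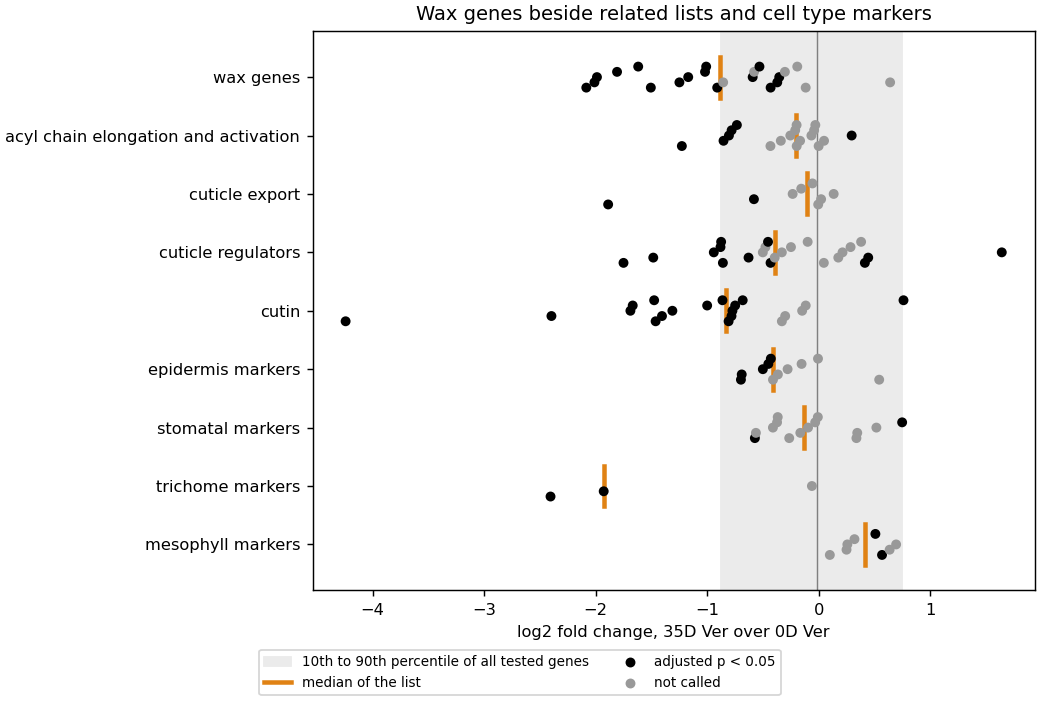
Log2 fold change (35D Ver minus 0D Ver) of every tested copy in the wax members, the related cuticle lists and the epidermis, stomatal, trichome and mesophyll markers, 1 point per copy (black where called), with a line at each list's median and a shaded band from the 10th to the 90th percentile of all tested genes. The medians of the wax members and the cutin genes lie at −0.88 and −0.84, and that of the epidermis markers at −0.41.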

How the data were processed

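The authors made mRNA libraries from shoots and deposited read counts per gene, obtained after trimming (SolexaQA) and alignment (Bowtie2) to the BRAD gene set of *B. rapa*. How reads matching several copies were counted was not given in the sources used here, so that values of copies sharing an Arabidopsis match are uncertain. The deposited counts are written with commas and start at 1, as if 1 had been added, and were therefore tested on a log2 scale rather than with a count model.

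Commas were removed, libraries were scaled by TMM (trimmed mean of M-values, trims 0.3 and 0.05) and genes were kept that had at least 10 scaled counts in at least 2 libraries and at least 15 in total. The 2 conditions were compared on log2(normalized count + 1) in R 4.3.3 with limma 3.58.1 (trend, robust), two-sided, with Benjamini-Hochberg adjustment over the 29691 tested genes, and again on sums per Arabidopsis match. A fold change on this scale understates that of genes with low counts. The fit was tested on simulated data. The study calls its replicates biological. P-values cover 2 libraries per group, and no counting interval was used.

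The members, the related lists and their tests were chosen with earlier results of these data known. Named beside the members were, in each list, up to 3 genes with the strongest called change of at least 2-fold in each direction. Some genes outside this rule were named as well, among the cell type markers and the MYB factors. Alternatives were another scaling, other filters, another pseudocount, voom weights, stricter thresholds, a replicate block and each library left out. Sequences were not used here.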

Additional observations from a re-analysis of the deposited data

How the results depend on the processing

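Of the 16 member copies that fell, 11 kept their call at an adjusted p below 0.05 under each other scaling, filter, pseudocount, weighting and block that was planned and with each library left out, and of the 8 locus sums 5 did. These 11 copies were the 3 of CER6, CER3 Bra006799, CER1, the 4 strongest MAH1 copies, CER4 Bra034583 and WSD1. Leaving out 1 library at a time gave 12 to 16 copies lower, 0 to 1 higher and 5 to 8 locus sums lower. Over these fits the log2 fold change of CER3 Bra002692 ranged from −0.23 to 0.035 and that of CER4 Bra011470 from −0.41 to 0.063, both turning positive without 35D Ver replicate 2, and neither passed there. A minimum of 2-fold left 10 copies and 3 locus sums lower, and the study's thresholds left 6 copies and 2 locus sums. Total-count scaling gave 17 copies and testing without a filter 15. Median-of-ratios scaling, a filter on every library, a pseudocount of 0.1, subtracting 1 and voom weights each gave 16 copies and 8 locus sums.

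The replicate numbers are shared by the groups but nothing in the labels pairs them, and same-numbered libraries did not deviate together (correlation −0.17). With the replicate number as a block 13 copies and 6 locus sums fell. With the numbers crossed, a pairing added after seeing the data, 19 copies and 9 locus sums fell. With 2 libraries per group an outlying library cannot be told from its partner. The cause of the differences between settings was not tested.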
